A study of Homo sapiens with 6 samples.

Results

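The glycolysis and hypoxia-induced genes described here are 38 genes chosen by symbol from the deposited expression table, and all 38 were among its 16809 genes. They cover glucose transporters (2 genes), the enzymes from glucose to lactate (17), the PFKFB regulators of phosphofructokinase (3), lactate transporters (2), pyruvate dehydrogenase kinases (4) and other genes known to be induced when oxygen is low (10). The rule takes gene symbols and no threshold on a measured value. The study profiled CAL-27, an established human tongue squamous carcinoma line, by RNA sequencing in 6 libraries. The 3 control libraries came from untreated cells, and the 3 ES-Cu libraries from cells given elesclomol, a copper ionophore, together with an equal part of copper for 24 h. The labels name no genetic change and no dose. The submitters' text places the comparison in the study of cuproptosis, a copper-dependent form of cell death.

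Glycolysis splits glucose into pyruvate in the cytosol and yields a little ATP without oxygen. When oxygen is scarce, the transcription factor HIF, made of an oxygen-regulated alpha subunit and ARNT, activates genes for glucose uptake, glycolytic enzymes and lactate export. It also activates PDK genes, whose kinases shut pyruvate out of the mitochondrial citric acid cycle, and genes for mitophagy, pH control, collagen modification and vessel growth. Many carcinoma lines express much of this programme in ordinary culture.

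Values are TPM, a transcript share corrected for gene length, so levels of different genes can be set side by side on this scale. TPM keeps no read total, and the sequencing depth behind each value is unknown. A gene was tested if its mean over the 6 libraries was at least 1 TPM, and 36 of the 38 members were. Fold changes are log2 differences of log2(TPM + 1) between ES-Cu and control, which understate changes of low genes, and adjusted p-values are limma's with Benjamini-Hochberg adjustment over all 11927 tested genes, two-sided, with a threshold of 0.05. A TPM column sums to a fixed total, and the median tested gene lay at -0.50 on this scale. The words rose and fell are kept for genes called in the same direction as deposited, after median-of-ratios scaling (median gene at 0.00) and after quantile normalization (median gene at -0.07). Of all tested genes 13.5% rose and 31.2% fell by that rule, and as deposited 13.6% were called higher and 70.0% lower. Member counts below are to be read against these shares.

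All 8 squamous epithelial markers on a fixed list were tested, and their summed level was 1803 to 1873 TPM in control and 1549 to 1600 TPM in ES-Cu. They did not move together. KRT5, the main part of the sum, was at 853 ± 22.8 and 853 ± 21.6 TPM (SD, n = 3), not called as deposited and called higher under median scaling (0.56). By the rule above, KRT6A rose and TP63, CDH1 and ITGB4 fell, to 28.2% of control for TP63 and 41.1% for CDH1. Of 7 fibroblast markers 6 were in the table and 4 were under 1 TPM in every library, and their sum, mainly COL1A1, was 11.8 to 12.1 TPM in control and 4.80 to 5.33 TPM in ES-Cu. Of 5 endothelial markers 4 were under 1 TPM in every library, and the sum, mainly CDH5, was 7.19 to 7.56 and 1.28 to 1.90 TPM. Of 6 leukocyte markers 4 were in the table, and the sum, nearly all CD68, was 60.5 to 67.2 and 49.5 to 54.5 TPM. PTPRC of leukocytes, KDR of endothelium and COL3A1 of fibroblasts, picked after the values were seen, were at 0.09 TPM or less in every library. The genes of these lists that averaged at least 1 TPM over the 6 libraries were COL1A1, PDGFRB, CDH5 and CD68. They were at 8.36, 2.23, 7.15 and 63.6 TPM in control. All these sums were lower in ES-Cu, and their part in the results was not tested. The labels name CAL-27 as the only cells of every library, so these lists do not show that other cell types were present. In bulk RNA, fewer cells of a type and less RNA per cell cannot be told apart. Whether each library was a culture of its own is not in the labels, and the tests therefore speak only of the spread among these libraries, part of which may be technical. No 2 libraries held identical values.

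As deposited most of the programme was lower after ES-Cu, as were most tested genes. Of the 36 tested members 22 fell, 2 rose and 12 did neither. Of all tested genes 31.2% fell and 13.5% rose. The 22 that fell were SLC2A1, 10 of 17 enzymes, PFKFB3, all 3 tested PDK genes and 7 of 10 other hypoxia targets. VEGFA and ADM rose. The median log2 fold change was -0.74 for the enzymes and -1.57 for the other hypoxia targets, beside -0.50 for all tested genes. As deposited 32 members were called lower and 2 higher, beside 70.0% and 13.6% of all tested genes. Under median scaling 22 members were called lower and 9 higher, beside 4266 and 4532 of the 11927 tested genes. SLC2A3 and PDK4 were too low to test.

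**Figure D1:**
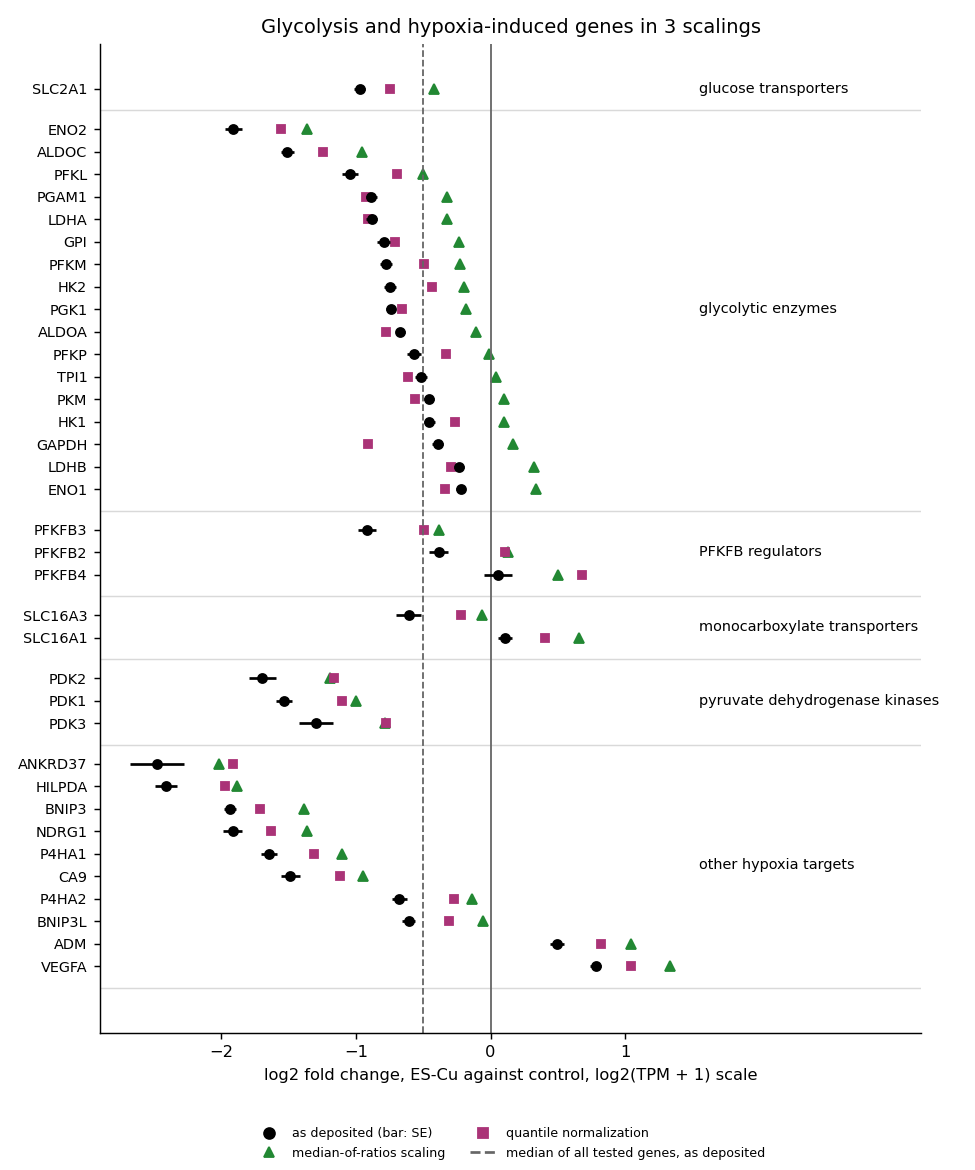
Log2 fold change of each of the 36 tested members between ES-Cu and control, as deposited (black, bars are the SE of limma) and after 2 other scalings of the libraries (triangles and squares). The black points of BNIP3, ANKRD37, HILPDA and NDRG1 lie beyond -1.9, those of VEGFA and ADM lie above 0, and the enzymes run from -1.91 to -0.22 around the dashed line of the median tested gene at -0.50.

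Glucose enters these cells through facilitative transporters. SLC2A1, which encodes GLUT1, the widespread basal glucose transporter, stood at 177, 167 and 176 TPM across the controls and 87.7, 86.0 and 89.6 TPM across the treated libraries. The groups did not overlap, and SLC2A1 fell by 0.97 on the log2 scale (adjusted p = 6.81e-09, limma). SLC2A3, for the high-affinity transporter GLUT3, was listed at 0.05, 0.11 and 0.11 TPM untreated and 0.09, 0.08 and 0 TPM treated. At these levels nearly all GLUT1 and GLUT3 transcript was SLC2A1 in both groups.

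The enzymes are given in pathway order. Hexokinases phosphorylate glucose on entry. HK1, the constitutive form, was the more abundant at 180.4, 176 and 176 TPM across the controls and 133, 128 and 127 TPM across the treated libraries. Its log2 fold change of -0.45 turned to 0.10 under median scaling (adjusted p = 0.0322, limma), so it neither rose nor fell. HK2, the inducible hexokinase bound to mitochondria in many tumours, was at 85.2, 82.3 and 81.9 TPM across the controls and 48.6, 49.0 and 50.1 TPM across the treated libraries. HK2 fell (log2 fold change -0.74, SE 0.045), with every ES-Cu library near 49 TPM. GPI, which turns glucose phosphate into fructose phosphate, fell from 593 ± 26.8 to 342 ± 20.7 TPM (means with SD over 3 libraries a group, as in what follows).

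Phosphofructokinase commits the sugar to glycolysis, and its 3 subunit genes are named for liver, muscle and platelet. PFKL fell from 63.1 ± 3.88 to 30.0 ± 1.07 TPM (log2 fold change -1.05, SE 0.058). PFKM fell from 109.5 ± 3.66 to 63.6 ± 1.65 TPM. PFKP, the highest of the 3 subunits, was at 148, 132 and 145 TPM across the controls and 97.6, 94.0 and 94.1 TPM across the treated libraries, and its log2 fold change of -0.57 as deposited was -0.014 under median scaling, with an adjusted p of 0.802 (limma). All 3 genes had ES-Cu libraries below every control library.

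Aldolase and the triose enzymes include some of the most abundant members. ALDOA, the main aldolase of muscle and most dividing cells, went from 3536 ± 123 to 2223 ± 15.4 TPM. It fell, though under median scaling its log2 fold change was only -0.11 (adjusted p = 0.0394, limma). ALDOC, the aldolase best known from brain, was at 138, 138 and 142 TPM across the controls and 47.7, 46.9 and 50.3 TPM across the treated libraries. Its ES-Cu libraries held 34.7% of the control mean (log2 fold change -1.51, SE 0.046, adjusted p = 5.03e-10, limma). TPI1, the triose phosphate isomerase gene, was at 2053, 2056 and 2165 TPM untreated and 1437, 1400 and 1554 TPM treated. TPI1 was called at -0.52 as deposited and stood at 0.042, short of the threshold, under median scaling.

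GAPDH, often used as a reference gene, was the highest member of all. It stood at 9856, 9632 and 9795 TPM across the controls and 7259, 7247 and 7804 TPM across the treated libraries. Its direction depended on the scaling, with log2 fold changes of -0.39 as deposited, 0.16 under median scaling and -0.91 under quantile normalization, all past the threshold. PGK1, the first ATP-forming kinase of the pathway, fell from 622 ± 12.0 to 371 ± 4.79 TPM. PGAM1, a phosphoglycerate mutase, fell from 1270 ± 59.4 to 687 ± 14.7 TPM, a log2 fold change of -0.88, SE 0.041.

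The last steps showed the widest spread among the enzymes. ENO1, the ubiquitous enolase, was at 5071, 4792 and 4819 TPM across the controls and 4216, 4156 and 4211 TPM across the treated libraries. It had the smallest change of the 17 enzymes as deposited (-0.22) and was called higher under median scaling (0.34, adjusted p = 5.48e-05, limma). ENO2, the enolase known as a neuronal marker and as a hypoxia target, had the largest, at 92.2, 88.5 and 95.9 TPM across the controls and 24.9, 21.8 and 24.9 TPM across the treated libraries. It fell to 25.8% of its control mean (log2 fold change -1.91, SE 0.062, adjusted p = 9.44e-10, limma). PKM, the pyruvate kinase gene, was at 4420, 4291 and 4395 TPM untreated and 3269, 3125 and 3157 TPM treated, with log2 fold changes of -0.46 as deposited and 0.10 under median scaling.

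Lactate dehydrogenase converts pyruvate to lactate and is built of A and B subunits. LDHA, the hypoxia-induced subunit, was at 2430, 2561 and 2360 TPM across the controls and 1331, 1313 and 1337 TPM across the treated libraries and fell (log2 fold change -0.88, SE 0.038). LDHB was at 1382, 1431 and 1403 TPM across the controls and 1216, 1216 and 1152 TPM across the treated libraries. LDHB was called lower as deposited (-0.23) and higher under median scaling (0.32). In the ES-Cu libraries the mean levels of the A and B subunit genes were 1327 and 1195 TPM, against 2450 and 1405 TPM in control.

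**Figure D2:**
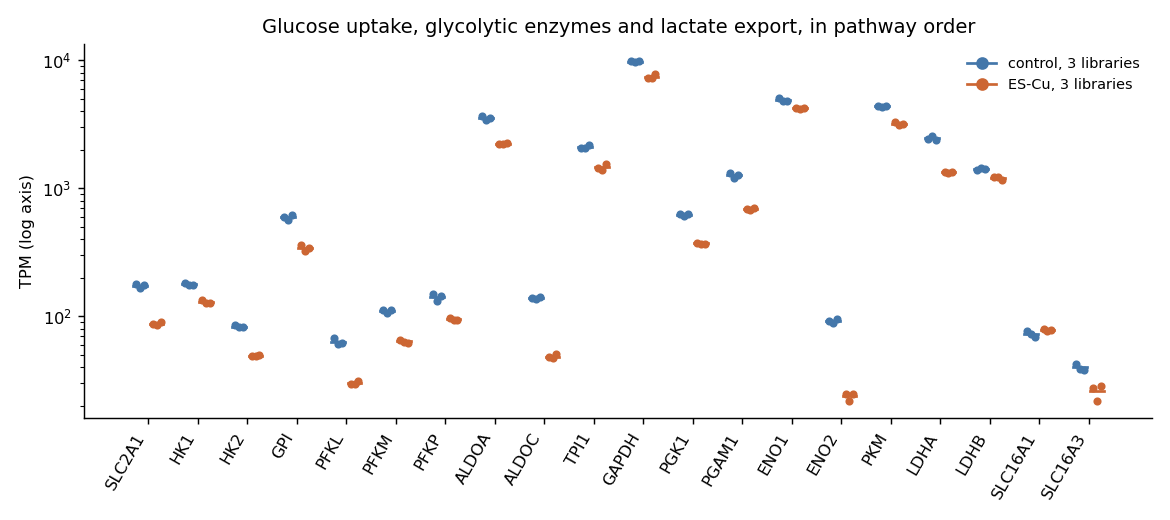
TPM on a log axis of the glucose transporter SLC2A1, the 17 glycolytic enzymes in pathway order and the lactate transporters, each point being a library and each line a group mean. Every ES-Cu library lies below every control library for SLC2A1, all 17 enzymes and SLC16A3, and the gap is widest for ALDOC and ENO2.

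All 17 enzymes were called lower as deposited, where 70.0% of all tested genes were. All had ES-Cu libraries below every control library, as did 70.3% of tested genes. Under median scaling 15 were called, beside 73.8% of all tested genes, and 10 of them lower, beside 35.8%. The 5 called higher there were HK1, GAPDH, ENO1, PKM and LDHB. In that scaling 4532 of the 11927 tested genes were called higher. Under quantile normalization all 17 were lower, beside 39.9%. Together the enzymes took 3.22, 3.13 and 3.18% of all TPM in the control libraries and 2.28, 2.25 and 2.33% in the ES-Cu libraries. The share in ES-Cu was 71.9% of that in control. The 8 enzymes with at least 1000 TPM in control, a limit chosen after the values were seen, had a median log2 fold change of -0.49 and 3 of them fell. The 9 below that level had a median of -0.78 and 7 of them fell. No test was made of that split, and under quantile normalization the medians were -0.69 and -0.65, in the opposite order. GAPDH, PGAM1, ENO1, TPI1 and LDHA have processed pseudogenes with near-identical sequence, and how reads were shared with them is not stated, so their TPM is uncertain to that extent.

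Ratios between related genes within a library do not change when all its values are multiplied by one factor, apart from the pseudocount. Of 15 pairs computed 13 had both genes tested, and in 11 of these the ES-Cu libraries did not overlap the control libraries. Of single tested genes 70.3% had all ES-Cu libraries below control and 14.0% had all above. The share for other pairs of genes was not computed. The smallest p that 3 against 3 libraries allow is 0.1 (exact permutation, two-sided), which those 11 pairs reached. Their adjusted p was 0.115 over the 15 pairs, so no ratio could pass the threshold. The log2 ratio of ENO2 to ENO1 went from -5.72 ± 0.069 in control to -7.40 ± 0.095 in ES-Cu (n = 3 per group), and that of ALDOC to ALDOA from -4.66 ± 0.051 in control to -5.50 ± 0.043 in ES-Cu. The minor isoenzyme thus lost share in both cases. LDHB to LDHA moved the other way, with a TPM ratio of 0.573 in control and 0.900 in ES-Cu.

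Smaller shifts were seen at the entry steps. The log2 ratio of HK2 to HK1 changed by -0.29, that of PFKL to PFKP by -0.48 and that of PFKM to PFKP by -0.21. In each of these the constitutive or most abundant gene gained share. A further hexokinase gene outside the members, HKDC1, was at 0.28, 0.07 and 0.28 TPM untreated and 5.03, 3.95 and 4.40 TPM treated and rose (log2 fold change 2.17). HKDC1 was named after its values were seen, and in ES-Cu it stayed below HK1 and HK2 in level. It passed the 1 TPM filter only through its ES-Cu libraries, so it could be called only higher.

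**Figure D3:**
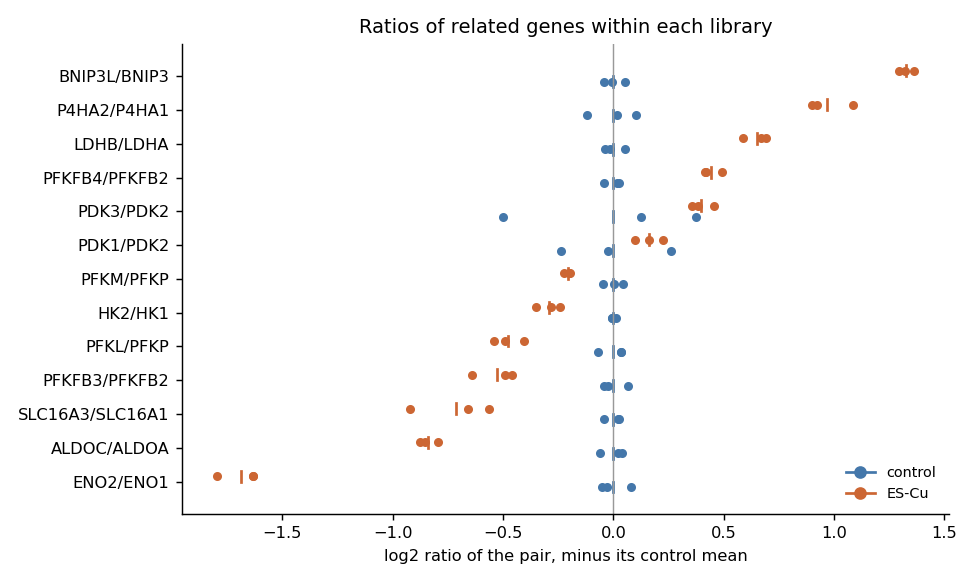
Log2 ratio of TPM (pseudocount 1) of 13 pairs of related genes in each library, minus the control mean of the pair, with lines at the group means. The ES-Cu points lie apart from the control points in 11 pairs, farthest to the left for ENO2/ENO1 and farthest to the right for BNIP3L/BNIP3, and overlap them for PDK1/PDK2 and PDK3/PDK2.

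PFKFB enzymes set the level of a sugar phosphate that activates phosphofructokinase. PFKFB3, the strongly activating and hypoxia-induced form, was at 33.0, 32.7 and 31.5 TPM across the controls and 15.7, 16.5 and 18.0 TPM across the treated libraries and fell (log2 fold change -0.92, SE 0.066, adjusted p = 2.28e-07, limma). PFKFB2 was at 15.2, 16.2 and 15.8 TPM untreated and 12.0, 11.3 and 12.1 TPM treated. Its log2 fold change of -0.39 was called as deposited but was 0.13 under median scaling, not called. PFKFB4, a hypoxia target in many cell types, was low, at 3.82, 4.13 and 3.77 TPM untreated and 4.37, 3.81 and 4.13 TPM treated. PFKFB4 was not called as deposited (0.056, adjusted p = 0.612, limma) and was called higher under median scaling (0.50) and quantile normalization (0.68). PFKFB3 to PFKFB2 was 2.06 in control and 1.42 in ES-Cu as a ratio of TPM.

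Monocarboxylate transporters carry lactate across the plasma membrane. SLC16A1, for MCT1, was at 76.5, 73.2 and 68.7 TPM across the controls and 80.0, 77.2 and 78.0 TPM across the treated libraries. Every ES-Cu library was above every control library, yet SLC16A1 missed the threshold as deposited (0.11, adjusted p = 0.0685, limma). It was called higher under median scaling (0.66) and quantile normalization (0.41), and as deposited without control replicate 1 (0.14, adjusted p = 0.033, limma) or with the 20 highest genes removed (0.26). SLC16A3, for MCT4, the hypoxia-induced lactate exporter of glycolytic cells, was at 42.4, 38.9 and 38.2 TPM across the controls and 27.4, 21.9 and 28.6 TPM across the treated libraries. It was called lower as deposited (-0.61) and not under median scaling (-0.067). The ratio of SLC16A3 to SLC16A1 in TPM was 0.547 in control and 0.331 in ES-Cu, without overlap of the libraries. BSG, which encodes the chaperone that both transporters need at the membrane, was at 747 ± 10.8 and 714 ± 2.84 TPM and was not called as deposited (adjusted p = 0.0807, limma) but was called higher under median scaling (0.49).

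Pyruvate dehydrogenase kinases phosphorylate and switch off the enzyme complex that feeds pyruvate into mitochondria. All 3 tested PDK genes fell. PDK1, the classical HIF target of the family, was at 36.7, 39.5 and 38.9 TPM across the controls and 12.3, 12.5 and 13.0 TPM across the treated libraries (log2 fold change -1.53, SE 0.062, adjusted p = 3.91e-09, limma). PDK2, the most widely expressed form, was at 22.9, 17.2 and 20.8 TPM across the controls and 5.39, 5.78 and 5.45 TPM across the treated libraries (log2 fold change -1.69, SE 0.10). PDK3 was at 15.0, 21.3 and 21.5 TPM across the controls and 6.90, 7.81 and 6.81 TPM across the treated libraries, with control replicate 1 below the other controls and still far above every ES-Cu library. PDK4, known for induction by fasting, had a listed value of 0 in each control and of 0.05, 0 and 0.09 TPM in the treated libraries. The summed level of the family was 74.5, 78.0 and 81.2 TPM in control and 24.6, 26.1 and 25.4 TPM in ES-Cu, which is 32.5% of the control mean.

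The log2 ratio of PDK1 to PDK2 went from 0.90 ± 0.25 in control to 1.06 ± 0.065 in ES-Cu and that of PDK3 to PDK2 from -0.079 ± 0.45 in control to 0.32 ± 0.052 in ES-Cu. Both overlapped between groups (exact permutation p = 0.4 and 0.2, two-sided). On the opposing side, PDP1, the main phosphatase that reactivates the complex, also fell, from 99.7 ± 5.08 to 43.5 ± 1.31 TPM (log2 fold change -1.18, SE 0.052), and so did PDPR, which encodes a regulatory subunit of that phosphatase (-0.73). The third phosphatase gene of that list, PDP2, was at 7.34 ± 0.199 and 7.56 ± 0.260 TPM and was not called as deposited but was called higher under median scaling (0.53) and quantile normalization (0.63). The other gene of this list of 12 partners of pyruvate and lactate handling that fell was SLC16A7, for the transporter MCT2 (-0.82, named after its values were seen). That makes 3 of 12 that fell and 0 that rose, beside 31.2% and 13.5% of all tested genes. SLC16A7 was low, with means of 1.62 ± 0.191 TPM untreated and 0.487 ± 0.0231 TPM treated. Only its control libraries carried it past the filter of 1 TPM, so a call could only be lower.

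The other hypoxia targets held the largest changes in both directions. HIF binds a short core, ACGTG or GCGTG, in the promoters of many of its targets, and the upstream sequence is shown for the members with the largest changes that the promoter table held, because they fell the furthest (ANKRD37, BNIP3) or rose (ADM). Each line gives the 250 bases before the transcription start, 5′ to 3′ on the gene's strand, from RefSeq on GRCh38.p14, with ACGTG and GCGTG on either strand in capitals. ANKRD37 lies at chr4:185396591-185396840 (plus strand), BNIP3 at chr10:131981924-131982173 (minus strand) and ADM at chr11:10304823-10305072 (plus strand).
ANKRD37: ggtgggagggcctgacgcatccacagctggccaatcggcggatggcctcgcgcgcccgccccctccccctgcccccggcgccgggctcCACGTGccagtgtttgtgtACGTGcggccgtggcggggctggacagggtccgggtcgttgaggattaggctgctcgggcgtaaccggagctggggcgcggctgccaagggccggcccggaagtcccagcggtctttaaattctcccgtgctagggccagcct
BNIP3: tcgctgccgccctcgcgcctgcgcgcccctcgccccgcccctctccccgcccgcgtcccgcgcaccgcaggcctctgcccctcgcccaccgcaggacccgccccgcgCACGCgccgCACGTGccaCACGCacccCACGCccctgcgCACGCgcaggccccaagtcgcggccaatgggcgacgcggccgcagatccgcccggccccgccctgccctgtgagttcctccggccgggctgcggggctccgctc
ADM: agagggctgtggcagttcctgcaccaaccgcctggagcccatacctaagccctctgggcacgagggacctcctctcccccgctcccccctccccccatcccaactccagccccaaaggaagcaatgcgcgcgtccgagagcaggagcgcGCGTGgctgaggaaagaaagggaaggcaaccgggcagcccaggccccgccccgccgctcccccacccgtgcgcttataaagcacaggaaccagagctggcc
The ANKRD37 window had 2 stretches of capitals, starting 162 and 143 bases before the start. The BNIP3 window had 5, from 143 to 104 bases before the start. The ADM window had 1, at 101 bases. A CACGTG, which reads as ACGTG on both strands and is also the E-box of other factors, was present once in ANKRD37 and once in BNIP3.

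Promoters of 31 of the 38 members were matched by gene identifier, over a window of 300 bases that reaches 50 bases past the start. The other 7 members were SLC2A3, PFKFB2, SLC16A1, BNIP3L, HILPDA, NDRG1 and VEGFA. ACGTG was found on either strand in 13 of these 31, in 12 of the 20 among them that fell, and in 21.4% of all 35116 promoters of that length and 27.2% of the 9821 of tested genes. Among the 9 members that neither rose nor fell, 1 had it (GAPDH). The members were chosen as glycolysis and hypoxia-induced genes and then split by their calls. The share among all tested genes that fell was not computed, and no test was made of the split. GCGTG was found in 14 of the 31 members, 36.5% of all promoters and 51.1% of those of tested genes. It was in 9 of the 20 that fell and 4 of the 9 that did neither. One core or the other was in 21 of the 31 members, or 67.7%, beside 63.7% of promoters of tested genes, in 15 of the 20 that fell and in 5 of the 9 that did neither. Counted on each strand, LDHA held 5 matches of ACGTG, and ALDOC, PGK1 and ANKRD37 held 3 each. A CACGTG counts as 2 matches in this way, and LDHA held 2 of them and ALDOC and ANKRD37 held 1 each. PFKM, PGAM1, PDK1, PDK2 and P4HA2, which also fell, held neither core in this window. A match describes the sequence and shows no binding, and a window without one says nothing of the factor.

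BNIP3 and BNIP3L encode related mitophagy receptors of the mitochondrial outer membrane. BNIP3, whose promoter is shown above, was at 263, 263 and 265 TPM across the controls and 67.4, 71.5 and 65.8 TPM across the treated libraries. It fell to 25.9% of control (log2 fold change -1.94, SE 0.043, adjusted p = 3.59e-11, limma). BNIP3L, also called NIX, was at 92.2, 98.5 and 95.5 TPM across the controls and 63.1, 63.8 and 59.8 TPM across the treated libraries. It was called lower as deposited (-0.61) but not under median scaling (-0.058, adjusted p = 0.297, limma). The TPM ratio of BNIP3L to BNIP3 was 0.362 in control and 0.912 in ES-Cu, so a receptor gene that was well below BNIP3 in control came near its level in ES-Cu.

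ANKRD37, a small ankyrin repeat protein and sensitive HIF target, showed the largest fall of all members as deposited and under median scaling, and under quantile normalization (-1.91) came after HILPDA (-1.97). It was at 20.5, 15.1 and 15.6 TPM across the controls and 2.82, 2.92 and 1.22 TPM across the treated libraries, with ES-Cu replicate 3 the lowest (log2 fold change -2.48, SE 0.20, adjusted p = 5.13e-07, limma). HILPDA, which blocks a triglyceride lipase on lipid droplets, was at 47.5, 55.4 and 50.3 TPM across the controls and 9.20, 9.39 and 7.81 TPM across the treated libraries and fell (log2 fold change -2.41, SE 0.083, adjusted p = 1.38e-09, limma). NDRG1, a stress gene induced by hypoxia and by iron chelation, was at 139.6, 134 and 144 TPM across the controls and 38.2, 32.0 and 39.0 TPM across the treated libraries and fell (log2 fold change -1.91, SE 0.07). In each of these 3 genes the control libraries stood 3.83 to 7.35 times above the ES-Cu libraries by the ratio of means.

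CA9, the cell-surface carbonic anhydrase used as a tissue marker of hypoxia, was at 60.4, 63.1 and 64.6 TPM across the controls and 19.6, 22.0 and 23.7 TPM across the treated libraries. It fell, by 1.49 on the log2 scale. Prolyl 4-hydroxylase alpha subunits modify collagen before it folds. P4HA1 was at 89.7, 94.1 and 86.2 TPM across the controls and 29.3, 26.2 and 28.8 TPM across the treated libraries and fell (log2 fold change -1.65, SE 0.058). P4HA2 was at 34.4, 32.7 and 35.0 TPM across the controls and 21.1, 21.2 and 20.4 TPM across the treated libraries and fell by less (-0.68 as deposited and -0.14, adjusted p = 0.0444, under median scaling, limma). The TPM ratio of P4HA2 to P4HA1 was 0.378 in control and 0.744 in ES-Cu.

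VEGFA and ADM went the other way. VEGFA, the main growth factor of blood vessels, was at 74.1, 75.4 and 76.9 TPM across the controls and 135, 128 and 128 TPM across the treated libraries. It rose 1.73-fold by the ratio of means (log2 fold change 0.78, SE 0.043, adjusted p = 3.20e-08, limma; 1.33 under median scaling). ADM, the vasodilator peptide adrenomedullin, was at 47.6, 44.2 and 48.6 TPM across the controls and 68.5, 66.4 and 63.8 TPM across the treated libraries and rose 1.41-fold (log2 fold change 0.49, SE 0.054, adjusted p = 5.70e-06, limma). Both encode secreted factors, and every ES-Cu library lay above every control library. VEGFA and ADM together made up 14.0, 13.7 and 14.2% of the summed TPM of the 10 genes in the control libraries and 44.8, 43.9 and 43.8% in the ES-Cu libraries. The other 8 genes, a split made after the values were seen, summed to 747, 756 and 757 TPM in control and 251, 249 and 246 TPM in ES-Cu.

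**Figure D4:**
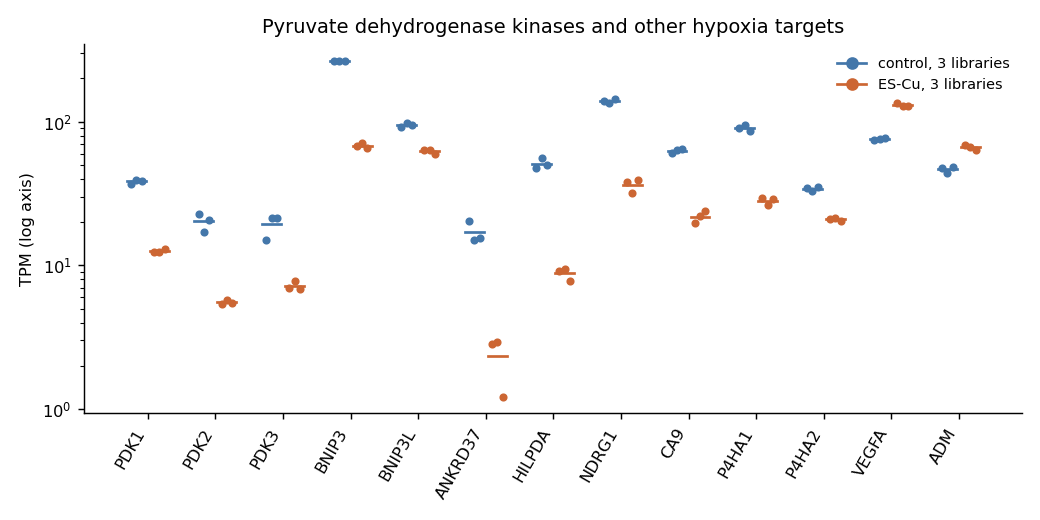
TPM on a log axis of 3 pyruvate dehydrogenase kinase genes and 10 other hypoxia targets, each point being a library and each line a group mean. VEGFA and ADM are the only genes shown whose ES-Cu libraries lie above control, and ANKRD37 has the widest gap below it.

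The glycolytic enzymes and the other hypoxia targets were then set side by side. Of the 10 targets 7 fell and 2 rose, and of the 17 enzymes 10 fell and 0 rose, beside 31.2% and 13.5% of all tested genes. At least 2-fold lower as deposited were 6 of the 10 targets and 3 of the 17 enzymes (PFKL, ALDOC and ENO2), beside 18.2% of all tested genes. After median scaling the median log2 fold change was -0.19 for the enzymes and -1.02 for the targets. Within each library the mean log2(TPM + 1) of the enzymes exceeded that of the targets by 3.23, 3.19 and 3.22 in control and by 3.62, 3.59 and 3.73 in ES-Cu. The gap widened by 0.44, more than the spread of the libraries of either group, and by 0.15 under quantile normalization. The lists were chosen with earlier results known, and no test was made of this difference.

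Further genes of the same programme, from a list of 35 hypoxia-induced genes outside the members, were counted beside them. Of the 34 tested, 24 fell and 4 rose, beside 31.2% and 13.5% of all tested genes, with a median log2 fold change of -1.09. CA12, PPFIA4 and STC1 are among the 24, with treated means of 0.483, 0.393 and 0.967 TPM. Only their control libraries carried them past the filter of 1 TPM, so a call could only be lower. EFNA1, EFNA3, EGLN3 and RAB20 were named for the largest absolute changes on this list, among genes with at least 5 TPM in a group. EFNA1, an ephrin ligand, fell from 146 ± 6.06 to 25.2 ± 1.61 TPM (log2 fold change -2.49, SE 0.057), and EFNA3 fell from 12.6 ± 2.89 to 2.06 ± 0.450 TPM. EGLN3, an oxygen-sensing prolyl hydroxylase that HIF itself induces, and RAB20, a small GTPase of vesicle traffic, had log2 fold changes of -2.84 and -1.93. Among those that rose were STC2, WSB1 and NFIL3, named after their values were seen, with log2 fold changes of 0.44, 0.26 and 0.41.

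Other glycolysis genes changed in both directions. Of 25 listed, 22 were in the table and 11 were tested, of which 6 fell and 2 rose, beside 31.2% and 13.5% of all tested genes. PGM1, which links glycogen to glycolysis, fell from 91.3 ± 3.45 to 31.6 ± 0.882 TPM. ENO3, the muscle enolase, fell from 26.0 ± 1.99 to 6.77 ± 1.23 TPM, a log2 fold change (-1.81) close to that of ENO2. The sugar transporter genes SLC2A12 (-2.08) and SLC2A8 (-1.15) fell as well. PGM1, ENO3, SLC2A12 and SLC2A8 were named for the largest absolute changes among genes of this list with at least 5 TPM in a group. The list median was -0.87. The 2 that rose were HKDC1, described above, and TIGAR, which opposes PFKFB enzymes and went from 3.37 ± 0.234 to 4.32 ± 0.150 TPM (named after its values were seen).

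Of 7 tested genes for HIF subunits and regulators 2 fell and 0 rose, beside 31.2% and 13.5% of all tested genes. HIF1A, the oxygen-regulated alpha subunit, was at 272, 293 and 285 TPM across the controls and 270.4, 265 and 263 TPM across the treated libraries and missed the threshold as deposited (-0.09, adjusted p = 0.0519, limma) but was called higher under median scaling (0.47). ARNT, the common partner subunit, fell from 28.5 ± 1.99 to 16.8 ± 1.22 TPM. The other that fell was its paralog ARNT2 (-1.02, named after its values were seen), from 2.38 ± 0.237 to 0.663 ± 0.0808 TPM. ARNT2 passed the 1 TPM filter only through its control libraries, so it could be called only lower. HIF protein was not measured.

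**Figure D5:**
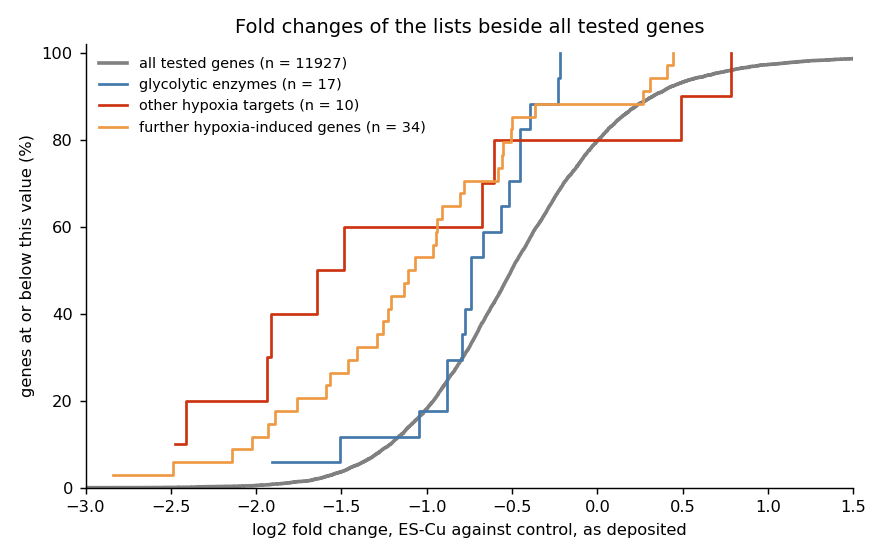
Cumulative share of genes by log2 fold change as deposited, for all 11927 tested genes, the 17 glycolytic enzymes, the 10 other hypoxia targets and 34 further hypoxia-induced genes. The curves of both hypoxia lists lie to the left of the grey curve over most of their length, with medians of -1.57 and -1.09, and that of the enzymes is the steepest, with a median of -0.74 beside -0.50 for all genes.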

How the data were processed

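The 6 libraries were sequenced from one end, 50 bases a read, by BGISEQ-500, per the labels' protocols. The unit of the deposited values is TPM, computed by the authors, with 2 decimals and one fixed total per column. The tools HISAT and Bowtie2, with no version, stand in the submitters' processing notes, which also name GRCm38.p6, a mouse build, although 16753 of 16809 gene identifiers (99.7%) matched human RefSeq genes. The quantification tool is not given in the sources used here, and depth is unknown.

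The members and gene lists were chosen with earlier results of these data known. From the TPM, limma 3.58.1 (R 4.3.3) was fitted to log2(TPM + 1) over genes averaging 1 TPM or more, with a mean-variance trend and no replicate block. The code was tested on simulated data. All members were named whatever their values, with up to 4 genes per related list that were called in all 3 scalings and had at least 5 TPM in a group. Outside that rule BSG, PDP2, SLC16A7, HIF1A, ARNT2, HKDC1, TIGAR, STC2, WSB1, NFIL3, CA12, PPFIA4, STC1 and the cell type markers were named after their values were seen. Promoters shown are those of the 3 members with the largest changes in each direction, where matched. Gene coordinates are given only for those promoters, from RefSeq. Alternatives were other scalings, pseudocount 0.1, other filters, no trend, a replicate block and the omission of single libraries. Ratios were tested by exact permutation (scipy 1.17.1). The values of 1 gene of a related list are not reported here.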

Additional observations from a re-analysis of the deposited data

How the results depend on the processing

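Scaling was the choice that mattered. After median-of-ratios scaling the counts over all genes were 4532 higher and 4266 lower, against 1628 and 8351 as deposited, and under quantile normalization 3749 and 4756. Members called higher went from 2 to 9 after median scaling and to 4 under quantile normalization. Enzymes called higher went from 0 to 5 and enzymes called lower from 17 to 10 after median scaling. HK1 (0.10), TPI1 (0.042), GAPDH (0.16), ENO1 (0.34), PKM (0.10), LDHB (0.32) and PFKFB2 (0.13) turned sign after median scaling, and PFKFB2 (0.11) also under quantile normalization. The gap between enzymes and other hypoxia targets was 0.44 as deposited, 0.15 under quantile normalization and 0.40 to 0.46 without 1 library. With the 20 highest genes removed, which took 1 of the enzymes, ENO1 and LDHB were no longer called, SLC16A1 was called higher (0.26), and 2309 genes were called higher and 7296 lower. The cause of these shifts was not tested beyond the scaling itself. Of 502 alternative values of single members 483 kept sign and call, and all 120 of the pair ratios kept their sign. GAPDH gave no value with the 20 highest genes removed, nor PFKFB4 with a filter of 5 TPM.

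No pairing of the libraries by replicate number was visible. Deviations from the group means correlated at 0.021, -0.034 and 0.011 for equal numbers, and at -0.058 to 0.043 for unequal numbers. Whether equal numbers shared a culture or batch is not in the labels, and these few values cannot settle it. With a replicate block 1614 genes were called higher and 8343 lower, and the block changed no call of a member. With 1 library left out, all-gene counts ran from 1502 to 1593 higher and from 8088 to 8278 lower.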
